A study of Mus musculus with 6 samples.

Results

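The genes described here are those whose mouse symbol is Zfp followed by digits, a name given to genes that encode zinc finger proteins. A member had to carry that symbol as the only one of a probe set in the platform annotation and to have a mean linear intensity of at least 30 over the 6 arrays on its brightest probe set. Zfp36, whose product binds and destabilises inflammatory mRNAs, was left out. The members were thus chosen by their mean intensity and their name. The rule gave 181 genes of the 304 Zfp symbols on the array, among 12919 genes tested, and it used the mean over all arrays and no difference between groups. The name fits a nomenclature and not a single function, so the members differ widely in what they do.

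The arrays measured total RNA from primary fibroblast cultures of 2 embryos of the outbred ICR strain, taken at embryonic day 15.5. Each culture was measured once in 3 states. Control cells stayed at 37 °C with no agent. LPS cells received lipopolysaccharide, a component of the bacterial outer membrane, at 1 μg/ml for 4 h, and HS+LPS cells had the same 4 h with LPS after a heat shock of 1 h at 42 °C. No genetic change is named for any group, and heat shock without LPS was not analysed here, so HS+LPS against LPS is the comparison that adds the heat shock. The LPS dose is stated for the LPS group only, and an equal dose with HS+LPS is not stated. A group thus holds 2 arrays, 1 per culture, and values are given with culture 1 before culture 2.

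In a classical zinc finger a pair of cysteines and a pair of histidines hold a zinc ion, and fingers strung in a row read successive bases of DNA, or bind RNA or other proteins. Many mouse Zfp genes also encode a KRAB domain, which recruits the corepressor Trim28 and with it histone methyltransferases such as Setdb1 that silence retroelements and imprinted regions. Such genes arose by repeated local duplication and lie side by side in clusters, and many are transcribed at low levels. In fibroblasts, individual members are known from adipocyte and bone differentiation, ribosome maturation, RNA processing and mitosis.

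The deposited intensities had a common trimmed mean of 100.001 on each array, and array medians lay between 11.9 and 14.4. The treatments registered in the files: the heat shock chaperone gene Hspa1a read 5029 and 4939.6 with HS+LPS against 54.8 to 68.1 on the other arrays, and the chemokine gene Cxcl10 read 591 and 428 with LPS against 7.85 to 46.6 on the others. All 11 fibroblast markers lay above the noise level of every array, which was 4.33 to 7.67, the brightest of 24 bacterial control probe sets. Macrophage markers above noise numbered 6 of 9, with Ptprc, Itgam and Fcgr1 not above it on every array. Their summed intensities were 294 to 473 in Control, 307 to 499 in LPS and 254 to 378 in HS+LPS. For neural and glial markers (5 of 6 above noise) the sums were 490 to 738, 422 to 702 and 639 to 893, and for epithelial markers (2 of 7) 56.7 to 71.0, 54.9 to 105 and 102 to 141. Skeletal muscle markers (3 of 6) summed to 79.6 to 94.7, 79.5 to 98.4 and 80.3 to 156, and endothelial markers (2 of 7) to 54.9 to 61.7, 33.5 to 59.9 and 60.2 to 66.8. The part of such cells in the differences below was not tested, and fewer cells of a type and less RNA per cell cannot be told apart in bulk RNA.

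Most members were dim. Their mean intensities ran from 30.2 to 1407 with a median of 71.7 and quartiles of 44.5 and 133, against a median of 103 over all genes tested, and 27 members reached 200 or more. The brightest was Zfp622, a factor in maturation of the large ribosomal subunit, which read 1364 and 1482 in Control, 1449 and 1244 in LPS and 1397 and 1508 in HS+LPS. Its 3 groups overlapped. Next came Zfp207 (mean 624), a kinetochore protein that binds Bub3, Zfp106 (587), an RNA-binding protein, and the transcriptional corepressor Zfp503 (497). Zfp275 followed at 429 and Zfp771 at 411. Intensities of different probe sets are not on one scale per molecule, so this order describes signal only. For 16 members, among them Zfp622, Zfp771, Zfp516, Zfp467 and Zfp975, the probe set was of the x or s type, whose probes can also bind other transcripts.

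At the lower edge of the rule, Zfp41, Zfp975 and Zfp229 were just inside with means of 30.2, 30.2 and 30.6, and Zfp820, Zfp27 and Zfp1 just outside with 29.5, 29.5 and 28.6. A group mean under 30 occurred for 0 members in Control, 4 in LPS and 23 in HS+LPS. Such members met the mean of 30 only through their other groups, so their differences are not free of the rule. No member was at or under the noise level on any array. Zfp57, a guardian of imprinted regions, Zfp42, a marker of embryonic stem cells, and Zfp423, a preadipocyte factor, had means of 9.83, 3.05 and 16.2 and were not members.

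LPS against Control asks which members the bacterial stimulus changed. The median log2 difference was -0.03, against -0.05 for all genes tested, and the quartiles were -0.17 and 0.11. In the limma fit of the 3 groups, 0 members passed a Benjamini-Hochberg adjusted p of 0.05 in either direction, where 0.147% of all genes were higher and 0% lower. Without adjustment, 3 members were higher and 0 lower at p under 0.05 (3.18% and 1.69% of all genes). When the culture was added to the fit as a block, which takes out the constant difference between the embryos, 0 members were higher and 1 was lower, against 2.04% and 0.712% of all genes. Arrays did not overlap for 26 members that were lower and 24 that were higher, where 18.3% and 13.2% of all genes did so.

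The lower member was Zfp521, a cofactor that restrains osteoblast and adipocyte differentiation. It read 225 and 513 in Control, 161 and 344 in LPS and 127 and 230.0 in HS+LPS. Culture 2 was above culture 1 in every group and the groups overlapped, while within each culture LPS lay below Control by 0.47 and 0.57 on the log2 scale. The mean difference was -0.52 (SE 0.11 in the blocked limma fit, adjusted p = 0.0453, and 0.999 without the block). Without Control replicate 2 or without LPS replicate 1 it became 0.07 and 0.02, as arrays of different cultures were then set against each other. Zfp281, a transcription factor known from pluripotent cells, read 227 and 213 in Control and 320.1 and 292 in LPS. These arrays did not overlap, but the log2 difference of 0.47 did not pass (limma adjusted p = 0.694, blocked 0.0565).

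HS+LPS against LPS asks what the preceding heat shock changed in LPS-treated cells. Here the members lay lower on balance: the median log2 difference was -0.31, with quartiles of -0.56 and -0.03, against a median of -0.05 over all genes tested. Of the 181 members, 142 were below 0 (78.5%, against 55.6% of all genes), and 116 were lower in both cultures (64.1% against 40.7%). The medians were -0.25 in culture 1 and -0.34 in culture 2. HS+LPS lay below LPS without overlap of the arrays for 94 members and above it for 19, as for 28.8% and 17.8% of all genes. In those terms 51.9% of the members were lower without overlap and 10.5% were higher.

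**Figure D1:**
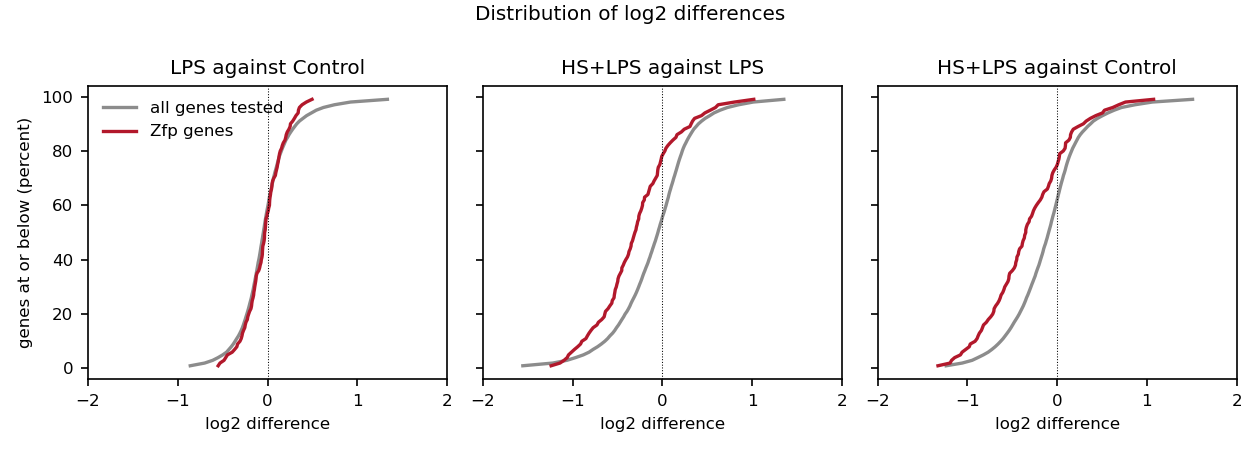
Cumulative share of genes (vertical axis, percent) at or below each log2 difference (horizontal axis) for LPS against Control, HS+LPS against LPS and HS+LPS against Control. Red lines are the 181 Zfp genes and grey lines all 12919 genes tested, from the 1st to the 99th percentile; the lines run close together in the first panel, and the red line lies to the left in the other panels, with medians of -0.31 against -0.05 and -0.35 against -0.09.

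Few single members passed the test. In the limma fit 1 member rose and 3 fell, with 0.511% of all genes higher and 0.844% lower, so these counts lay near the background. Without adjustment, p was under 0.05 for 9 higher and 53 lower members, against 4.95% and 11.9% of all genes. In the blocked fit 6.32% of all genes were higher and 12.6% lower, and of those with means of 30 or more 7.85% and 15.7%. In that fit 9 members were higher and 51 lower, or 4.97% and 28.2% of the members. The deposited scaling bears on this split: centring arrays on their median moved the all-gene median from -0.05 to 0.08 and left 13 higher and 31 lower members in the blocked fit (29.5% higher, against 15% as deposited), and quantile normalization left 10 and 30 (25%). Relative to all genes the members' median was -0.26 as deposited, -0.26 after centring and -0.19 after quantile normalization. Members below 0 numbered 142, 122 and 125 in that order, and those below the all-gene median 133, 133 and 122. Leaving out any 1 array left 0 members past the threshold without the block and 16 (without LPS replicate 2) to 71 (without HS+LPS replicate 1) with it.

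Zfp703, a corepressor of the NET family that is amplified in breast tumours, was the member that rose. It read 230.3 and 206 in Control, 268 and 234 in LPS and 636 and 550.4 in HS+LPS. Both HS+LPS arrays lay above all others. The increase was 2.35-fold (log2 difference 1.23, SE 0.15, limma adjusted p = 0.0272, blocked 6.49e-05). It was lost in 9 of 17 alternatives, with adjusted p from 6.49e-05 to 0.613. Another Zfp703 probe set, close to the noise level (mean 7.79), did not share the increase. It gave -0.58, which did not pass (blocked limma adjusted p = 0.416 in a fit of all probe sets). Zfp503, the other NET family member, read 314 and 588 in LPS and 341 and 555 in HS+LPS, groups that overlapped.

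Zfp407, which is known to support expression of PPARγ targets in adipocytes, fell most. Its arrays read 109 and 104 in Control, 128 and 144 in LPS and 50.01 and 38.0 in HS+LPS. Both HS+LPS arrays were the lowest of the 6. The decrease was 2.95-fold (log2 difference -1.56, SE 0.19, limma adjusted p = 0.029, blocked 0.000448). The call was lost in 8 of 17 alternatives (adjusted p 0.000448 to 0.217). A dimmer Zfp407 probe set (mean 9.49) gave -0.37, which did not pass (blocked limma adjusted p = 0.586).

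Zfp638, a nuclear RNA-binding protein that takes part in silencing unintegrated retroviral DNA, also fell. It read 199 and 199 in Control, 194 and 210.4 in LPS and 112 and 109 in HS+LPS, again with both HS+LPS arrays lowest. The decrease was 1.81-fold (log2 difference -0.85, SE 0.13, limma adjusted p = 0.0498, blocked 0.00122), and 13 of 17 alternatives lost it (0.00122 to 0.336). Its other probe set past the filter gave -0.61 (blocked limma adjusted p = 0.023).

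Zfp207 was the third member that fell. Its brightest probe set read 723 and 748 in Control, 707 and 744 in LPS and 444 and 375 in HS+LPS, and the groups LPS and HS+LPS were apart. The decrease was 1.77-fold (log2 difference -0.82, SE 0.13, limma adjusted p = 0.0495, blocked 0.000841), lost in 13 of 17 alternatives (0.000841 to 0.918). Its other probe sets did not share it: at means of 165, 45.5, 17.6 and 10.4 they gave -0.07, 0.62, 0.59 and 0.35, none past the threshold, and averaging the probe sets turned the difference to 0.13. The fall of Zfp207 is therefore that of 1 probe set. For Zfp638 and Zfp207, whose decreases passed without the block, the RefSeq windows (GRCm38.p6) of the 250 bases before the annotated start are shown as the sequence context of the called genes. They lie at chr6:83914103-83914352 and chr11:80383029-80383278, both on the plus strand, and capitals mark a GC box (GGGCGG) in Zfp638 and a CCAAT box in Zfp207.
Zfp638: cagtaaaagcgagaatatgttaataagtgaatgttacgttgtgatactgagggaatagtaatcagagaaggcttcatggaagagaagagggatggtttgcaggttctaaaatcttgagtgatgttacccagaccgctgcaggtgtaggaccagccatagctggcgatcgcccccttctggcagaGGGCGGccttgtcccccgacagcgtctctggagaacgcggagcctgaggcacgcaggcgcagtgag
Zfp207: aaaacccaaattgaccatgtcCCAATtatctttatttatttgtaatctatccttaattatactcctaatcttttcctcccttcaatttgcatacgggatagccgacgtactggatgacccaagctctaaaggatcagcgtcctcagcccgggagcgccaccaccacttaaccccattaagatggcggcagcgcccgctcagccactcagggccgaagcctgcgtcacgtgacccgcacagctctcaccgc

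**Figure D2:**
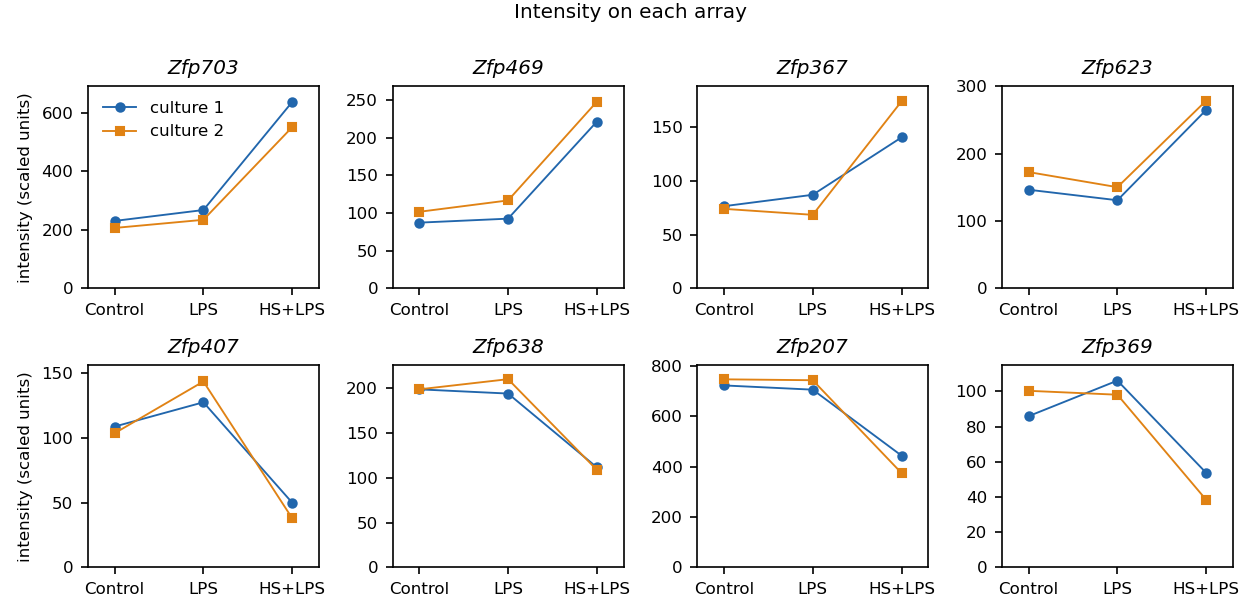
Intensity in scaled units (vertical axis, from 0) on each of the 6 arrays for Zfp703, Zfp469, Zfp367, Zfp623, Zfp407, Zfp638, Zfp207 and Zfp369, by group, with lines joining arrays of the same culture. In the upper row both HS+LPS arrays lie above all others, for Zfp703 at 636 and 550.4 against 206 to 268, and in the lower row both lie below, for Zfp407 at 50.01 and 38.0 against 104 to 144.

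Besides Zfp703, 8 members were higher in the blocked fit only. Zfp469, whose human counterpart is mutated in brittle cornea syndrome, read 92.5 and 117 in LPS and 221 and 248 in HS+LPS, a 2.21-fold difference (log2 1.15, SE 0.12, blocked limma adjusted p = 0.000416, and 0.0511 without the block). Zfp623 read 131 and 150.2 in LPS and 265 and 279 in HS+LPS (1.92-fold, log2 0.94, blocked limma adjusted p = 0.000671). In both genes the LPS and HS+LPS arrays were well apart. Zfp367 read 87.2 and 68.6 in LPS and 141 and 174 in HS+LPS (1.98-fold, log2 0.99, blocked limma adjusted p = 0.00524). Zfp330, a nucleolar protein, went from 252 ± 19.9 (SD, n = 2) to 393 ± 75.2, and Zfp516, a cofactor of brown fat genes, from 156 ± 43.9 to 235 ± 46.9. The log2 differences of Zfp655, Zfp64 and Zfp574 were 0.53, 0.47 and 0.35. All 8 were higher in both cultures.

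The 51 members lower in the blocked fit spanned log2 differences from -1.56 to -0.35, and 12 members in all were below -1, against 3.59% of all genes. Zfp369, an interactor of the neurotrophin receptor p75NTR, read 106 and 98.1 in LPS and 53.7 and 38.4 in HS+LPS (2.16-fold lower, log2 difference -1.11, SE 0.18, blocked limma adjusted p = 0.00438). Zfp758 read 91.6 and 98.0 in LPS and 48.3 and 40.7 in HS+LPS (2.05-fold lower, blocked limma adjusted p = 0.00313). In each the HS+LPS arrays were the lowest of the 6. Zfp292, known from growth hormone gene control, read 119.6 and 118 in LPS and 54.3 and 64.4 in HS+LPS (1.95-fold lower, blocked limma adjusted p = 0.00421), and its other 3 probe sets gave -0.69, -0.60 and -0.74.

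Zfp799 and Zfp383 differed more in culture 2 (-1.44 and -1.37) than in culture 1 (-0.65 and -0.73). Zfp128 read 21.7 and 54.2 in LPS and 12.05 and 15.02 in HS+LPS, so its LPS arrays were themselves far apart. Zfp975, at the edge of the rule, read 35.0 and 40.6 in LPS and 18.7 and 12.5 in HS+LPS. The remaining members among the 15 largest blocked decreases were Zfp839, Zfp677, Zfp248 and Zfp82, with log2 differences of -0.998, -0.95, -0.94 and -0.91. Of these 15, Zfp229, Zfp128, Zfp975, Zfp383, Zfp467, Zfp248 and Zfp82 had HS+LPS means under 30. They met the intensity rule only through their other groups.

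**Figure D3:**
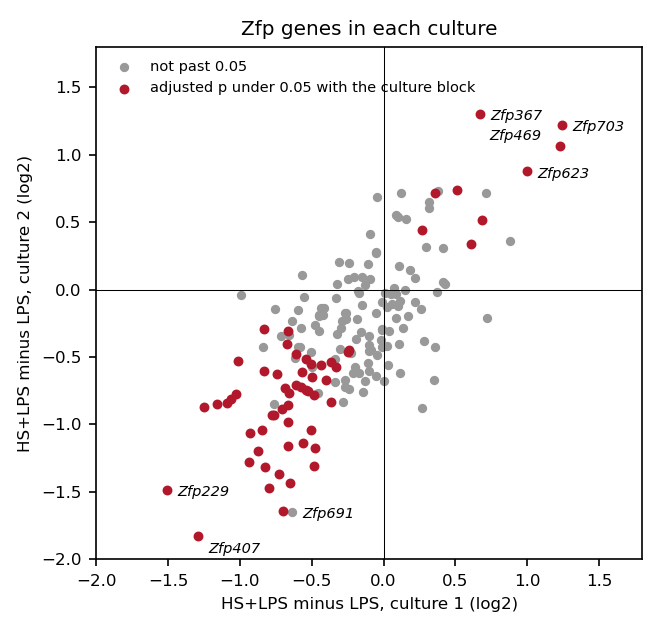
Log2 difference between HS+LPS and LPS in culture 1 (horizontal axis) and culture 2 (vertical axis) for the 181 Zfp genes, 1 point per gene. Red points passed a limma adjusted p of 0.05 with the culture as a block (9 higher, 51 lower) and grey points did not; 116 points lie below 0 in both cultures and 27 above 0 in both, with Zfp407 at -1.30 and -1.83 and Zfp703 at 1.24 and 1.22.

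By known role, the members did not all lie on one side. The role groups were picked after values were seen, so their counts also describe that choice. Among KRAB proteins that guard imprinted regions or silence retroelements, Zfp445, which maintains imprints, read 419.7 and 376 in LPS and 259 and 225 in HS+LPS, a 1.64-fold decrease in the blocked fit (log2 difference -0.71, SE 0.09, adjusted p = 0.00135, and 0.0776 without the block). Its other 2 probe sets, with means of 96.0 and 72.7, gave -0.31 and -0.35, which did not pass (blocked limma adjusted p = 0.173 and 0.195). Zfp809, which silences murine leukaemia virus DNA, read 151 and 106 in LPS and 101 and 115 in HS+LPS. Zfp568, a repressor of a placental Igf2 transcript, read 93.4 and 77.8 in LPS and 102 and 129.8 in HS+LPS. The arrays of Zfp809 overlapped, those of Zfp568 did not, and neither gene passed.

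Of 7 members that act on RNA or ribosomes, 3 were lower in the blocked limma fit and 4 did not pass. In that fit 12.6% of all genes and 28.2% of the members were lower. Zfp346, which binds double-stranded RNA, read 160.5 and 169.9 in LPS and 96.8 and 90.2 in HS+LPS (1.74-fold lower, log2 difference -0.80, blocked adjusted p = 0.00257). Zfp638 is given above, and Zfp318, a factor in alternative immunoglobulin splicing, differed by -0.54 (blocked adjusted p = 0.0274). Zfp622, Zfp106, Zfp326, which couples elongation to splicing, and Zfp598, which marks collided ribosomes, did not pass, with HS+LPS means of 1452, 525, 264 and 194 against 1347, 622, 206 and 203 in LPS. For Zfp106 a dimmer probe set (mean 78.1) went the other way, at 0.56 (blocked limma adjusted p = 0.049 in a fit of all probe sets). Another (mean 190) gave -0.25, which did not pass.

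Among 4 factors of mesenchymal and adipocyte differentiation, Zfp407, Zfp467 and Zfp521 were lower and Zfp516 higher in the blocked fit. Of all genes 12.6% were lower and 6.32% higher, and of the members 28.2% and 4.97%. Zfp467, which promotes adipocyte over bone fate, read 45.8 and 55.0 in LPS and 18.6 and 29.1 in HS+LPS (2.01-fold lower, log2 difference -1.01, blocked limma adjusted p = 0.00984), and its other 2 probe sets gave -0.87 and -0.98. Zfp521 differed by -0.45 (blocked adjusted p = 0.0233) with overlapping groups, and without LPS replicate 2 by 0.09.

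Of 6 promoter and chromatin factors, 0 passed in this comparison in the limma fit with or without the block, and 0 had an unadjusted p under 0.05. That count depends on the choice of genes: Zfp292, given above as lower in the blocked fit, was not placed in this group. Zfp148 read 399.8 ± 33.0 in LPS and 393 ± 1.30 in HS+LPS, Zfp281 306 ± 19.9 and 315 ± 26.0, Zfp131 294 ± 17.7 and 280.3 ± 40.9, Zfp384 188 ± 15.96 and 204 ± 16.1, Zfp335 109 ± 19.3 and 79.6 ± 2.57, and Zfp217 62.2 ± 3.05 and 52.3 ± 1.75 (SD, n = 2). Of 4 members tied to receptor or kinase signalling or SUMO, Zfp369 and its relative Zfp110 (log2 difference -0.45, blocked limma adjusted p = 0.0274) were lower. So were 12.6% of all genes and 28.2% of the members. Zfp91, a ubiquitin ligase of the NF-kB kinase NIK, read 405 ± 14.7 and 339.7 ± 38.8, and the SUMO ligase Zfp451 171 ± 3.22 and 219 ± 36.3; neither passed on its brightest probe set. A dimmer Zfp451 probe set (mean 111) went the other way, with a log2 difference of -0.68 (blocked limma adjusted p = 0.00761 in a fit of all probe sets), so the direction of Zfp451 is not settled. Zfp800 read 35.5 ± 4.54 and 51.8 ± 15.2 on its brightest probe set, which did not pass. A dimmer Zfp800 probe set (mean 15.3) went the other way, with -1.35 (blocked limma adjusted p = 0.0211 in a fit of all probe sets). The others gave 0.005, 0.26, -0.79 and -0.05, none past the threshold, so the direction of Zfp800 is not settled.

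Dim members had lower values in this comparison than bright ones. For the 77 members with means of 30 to 60 the median log2 difference was -0.38, for the 52 of 60 to 120 it was -0.39, and for the 52 of 120 or more it was -0.07. All genes in the same ranges had medians of -0.15, -0.14 and -0.01. The blocked fit gave 19 lower and 0 higher members in the dimmest range, 20 and 1 in the middle range, and 12 and 8 in the brightest. Those lower were 24.7%, 38.5% and 23.1% of the members, against 12.2%, 18.2% and 15.7% of all genes in these ranges. Those higher were 0%, 1.92% and 15.4%, against 3.44%, 4.7% and 10.1%. From a mean of 30 upwards, medians were thus lower in the dimmer ranges than in the brightest, among the members and among all genes. The shares lower in the blocked fit were largest in the middle range. The mean that sets a range includes the HS+LPS arrays, so a fall there itself moves a gene towards a dimmer range. The ranges leave out genes under 30, and the all-gene median was -0.05 with or without those genes. The part of signal strength in the result was not tested. With several probe sets past the filter, 53 of 86 members had the same sign on all of them in this comparison. A separate blocked fit took all probe sets past the filter, and adjusted p values given for dimmer probe sets come from it. Of the 28 members called there on their brightest probe set, 9 had another probe set called in the same direction. At least 1 of opposite sign was found for 3, and 0 had opposing calls.

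Position in the genome was read from the RefSeq gene order. There, 87 members sat next to another Zfp gene and had a median log2 difference of -0.35, with 28 (32.2%) lower in the blocked fit. The 94 others had a median of -0.23, with 23 (24.5%) lower, where 12.6% of all genes were lower and 15.7% of those with means of 30 or more. Those next to another Zfp gene were also dimmer, at a median intensity of 58.8 against 94.6, and the difference between the sets was not tested. The longest run held 15 Zfp genes from Zfp84 to Zfp146, with 8 members, of which 7 were below 0 and 3, Zfp383, Zfp82 and Zfp74, were lower in the blocked fit.

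The run with the most members lower lay around Zfp760. Of all genes 12.6% were lower in the blocked limma fit, and 28.8% had HS+LPS arrays below LPS arrays without overlap. Of the 8 neighbouring genes Zfp760, Zfp229, Zfp820, Zfp995, Zfp942, Zfp943, Zfp947 and Zfp994, 6 were members. All 6 were lower in the blocked limma fit without overlap of the LPS and HS+LPS arrays. Their log2 differences ran from -1.50 to -0.48 with a median of -0.96, and 0 passed without the block (adjusted p from 0.059 for Zfp229 to 0.306 for Zfp943). In 2 other runs, each with 2 members, both were lower as well: Zfp110 and Zfp128 in one, Zfp799 and Zfp871 in the other. The run around Zfp760 was singled out after its values were seen. Genes of such clusters are similar in sequence, so their probe sets may share signal and are not independent. The start regions of Zfp942 and Zfp943 are shown because these neighbours are read in opposite directions from almost the same place: their 250-base upstream windows (RefSeq, GRCm38.p6), chr17:21962465-21962714 on the minus strand and chr17:21962309-21962558 on the plus strand, share 94 bases, printed in capitals. The window of Zfp229, which had the largest difference of the run, lies at chr17:21733474-21733723 on the plus strand, with GC boxes and a CCAAT box in capitals on either strand.
Zfp942: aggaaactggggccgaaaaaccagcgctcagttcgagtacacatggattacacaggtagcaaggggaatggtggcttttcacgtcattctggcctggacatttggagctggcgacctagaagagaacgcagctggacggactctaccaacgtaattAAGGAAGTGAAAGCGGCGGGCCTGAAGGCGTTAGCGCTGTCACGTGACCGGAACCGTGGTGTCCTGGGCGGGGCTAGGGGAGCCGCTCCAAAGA
Zfp943: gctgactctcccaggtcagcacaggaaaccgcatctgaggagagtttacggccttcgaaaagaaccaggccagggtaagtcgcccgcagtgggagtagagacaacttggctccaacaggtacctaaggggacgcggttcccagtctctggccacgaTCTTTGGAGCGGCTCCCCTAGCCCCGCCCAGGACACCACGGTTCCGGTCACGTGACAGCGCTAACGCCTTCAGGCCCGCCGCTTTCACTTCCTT
Zfp229: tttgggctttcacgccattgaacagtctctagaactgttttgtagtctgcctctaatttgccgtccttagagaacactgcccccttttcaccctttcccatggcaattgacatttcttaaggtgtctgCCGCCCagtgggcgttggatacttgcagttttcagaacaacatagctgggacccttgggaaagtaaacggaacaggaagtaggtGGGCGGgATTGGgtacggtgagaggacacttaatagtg

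Zfp942 read 65.9 and 59.5 in Control, 84.3 and 63.0 in LPS and 49.0 and 39.6 in HS+LPS. The LPS and HS+LPS arrays were apart, and the log2 difference was -0.68 (SE 0.16, blocked limma adjusted p = 0.0218). Zfp943, on the other side of the shared bases, read 101 and 118, 104 and 109.6, and 64.5 and 88.1, with a difference of -0.48 (blocked limma adjusted p = 0.0461). Among the 146 members with a window in the RefSeq table these were the only 2 that shared bases with another member in that way. Zfp229 read 47.8 and 45.9 in Control, 30.4 and 39.2 in LPS and 8.51 and 11.8 in HS+LPS, close to the noise levels of 7.67 and 6.91 on the HS+LPS arrays (2.82-fold lower than LPS, log2 difference -1.50, SE 0.24, blocked limma adjusted p = 0.0042). Zfp995 went from 73.2 ± 17.4 to 32.6 ± 0.473, Zfp760 from 99.6 ± 36.4 to 44.7 ± 8.35 and Zfp994 from 78.3 ± 15.9 to 41.6 ± 4.02 (SD, n = 2).

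**Figure D4:**
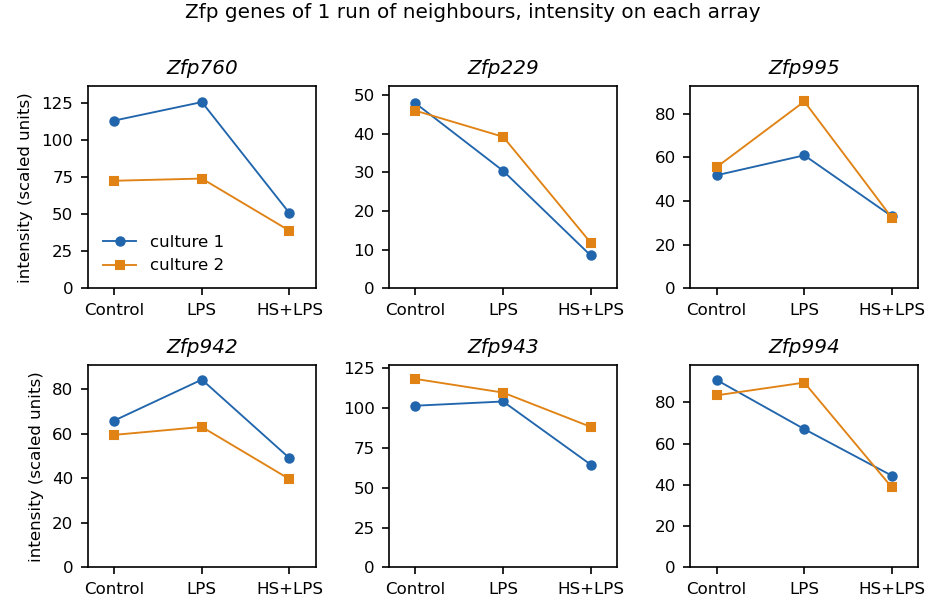
Intensity in scaled units (vertical axis, from 0) on each array for the 6 Zfp genes of the run from Zfp760 to Zfp994 that met the intensity rule, by group, with lines joining arrays of the same culture. In every panel both HS+LPS arrays lie below both LPS arrays, for Zfp229 at 8.51 and 11.8 against 30.4 and 39.2.

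Promoter windows were searched for short motifs on both strands, taking the 250 bases before each start, in 181 windows of 146 members and in 13318 windows of 10384 genes tested. A GC box (GGGCGG) was in 55.2% of the members' windows and 56.0% of those of genes tested, and a CCAAT box (CCAAT) in 44.2% and 34.7%. An ETS site (CCGGAAG) was in 16% and 12.4%. For the 51 windows of 43 members lower in the blocked fit these shares were 66.7%, 49.0% and 3.92%. Over all 32851 windows of the table they were 32.7%, 33.8% and 6.91%.

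Motifs tied to the treatments were rare. The inverted heat shock element pairs GAANNTTC and TTCNNGAA were in 5.52% and 3.87% of the members' windows, against 5.1% and 5.86% for genes tested and 6.69% and 7.17% for all windows. An NF-kB site was in 1.1%, against 1.48% and 1.41%, and the AP-1 site TGANTCA in 3.87%, against 4.84% and 6.75%. A TATA box (TATAAA) was in 7.18% of the members' windows, against 6.97% and 12.4%. The motif AAGATGGC, bound by YY1, was in 2.21%, against 1.82% and 1.56%, and the Zfp207 window printed above holds it. The CRE TGACGTCA was in 2.76%, against 2.45% and 1.55%. Each motif was searched by itself, and overlaps between motifs were not removed. The median number of CpG in a window was 13 for members and 15 for genes tested.

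HS+LPS against Control joins both treatments and shares its arrays with the comparisons above, so it adds no independent measurement. The median log2 difference of the members was -0.35 against -0.09 for all genes tested, and 134 members were below 0 (74%, against 61.9% of all genes). After centring 119 were below 0, and after quantile normalization 122. In the limma fit 1 member, Zfp703, rose and 0 fell, where 0.17% and 0.00774% of all genes were called. Before adjustment, 12 higher and 60 lower members had p under 0.05 (4.47% and 11.8% of all genes). With the block 10 were higher and 52 lower (5.06% and 12.1% of all genes, and 6.26% and 15.2% of those with means of 30 or more). The share of 16.1% higher became 26.8% after centring on the median, which moved the all-gene median to 0.03. The arrays of 101 members were lower without overlap and those of 21 higher, against 31.1% and 14.3% of all genes. Leaving out any 1 array left 0 members without the block and 11 (without Control replicate 2) to 80 (without HS+LPS replicate 1) with it.

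Zfp703 was 2.69-fold above Control (log2 difference 1.43, SE 0.15, limma adjusted p = 0.0406, blocked 4.12e-05), a call lost in 10 of 17 alternatives (4.12e-05 to 0.274). Its value in LPS lay 0.20 above Control, which did not pass. Zfp469, Zfp367, Zfp330 and Zfp623 were higher by 1.28, 1.02, 0.77 and 0.76 in the blocked fit. Zfp948 read 106 and 84.9 in Control and 149 and 168 in HS+LPS (log2 difference 0.71, blocked limma adjusted p = 0.0119), with LPS between them at 118 and 109. Zfp281 read 297 and 333 in HS+LPS, 0.51 above Control (blocked limma adjusted p = 0.013), next to the LPS arrays at 320.1 and 292. Its second probe set (mean 218) gave 0.22, which did not pass (blocked limma adjusted p = 0.242 in a fit of all probe sets). Zfp655, Zfp64 and Zfp516 differed by 0.55, 0.43 and 0.39.

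On the lower side Zfp229 was 3.74-fold below Control (log2 difference -1.90, SE 0.24, blocked limma adjusted p = 0.00187) and Zfp128 3.35-fold below (-1.74, blocked limma adjusted p = 0.0071). Their means were 46.9 and 53.0 in Control, 34.8 and 37.9 in LPS and 10.2 and 13.5 in HS+LPS. They met the intensity rule only through Control and LPS, as did Zfp248 (43.0, 36.0 and 17.5). The same holds for Zfp467, Zfp383, Zfp667, Zfp763, Zfp810, Zfp608 and Zfp975, named below, whose HS+LPS means were also under 30. Their decreases are therefore not free of the rule. Zfp407 was 2.33-fold below Control (-1.22, blocked limma adjusted p = 0.00219, and 0.0751 without the block), with its LPS arrays above its Control arrays. Zfp467, Zfp383, Zfp667, Zfp248 and Zfp763 were lower in the blocked fit, with log2 differences of -1.20, -1.18, -1.18, -1.16 and -1.15. Zfp810 read 52.1 and 59.8 in Control, 37.5 and 49.3 in LPS and 19.5 and 31.3 in HS+LPS, 3 groups without overlap in that order. Zfp608 read 32.7 and 107 in Control and 19.2 and 38.9 in HS+LPS, groups that overlapped, with culture 2 brighter in every group. Its difference was -1.03 on this probe set (mean 51.5). On a second probe set (mean 51.2) it was -0.38, which did not pass (blocked limma adjusted p = 0.236 in a fit of all probe sets). The others among the 15 largest decreases were Zfp975, Zfp799, Zfp839, Zfp994 and Zfp369, from -1.11 to -0.98.

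The genes that KRAB zinc finger proteins work with were read from a list of 25 corepressor genes, of which 24 were tested. For HS+LPS against LPS their median log2 difference was -0.22, against -0.05 for all genes. In the blocked fit 2 were higher and 6 lower, or 8.33% and 25% against 6.32% and 12.6% of all genes, and 0 were called without the block. Trim28, the corepressor itself, read 1123 and 1363 in Control, 1022 and 1213 in LPS and 902 and 1010.3 in HS+LPS. Each culture was lowest with HS+LPS, and the difference from LPS of -0.22 did not pass (blocked limma adjusted p = 0.0674). Smarcad1, a chromatin remodeller that binds Trim28, read 161 and 189 in LPS and 112 and 107 in HS+LPS (log2 difference -0.66, blocked limma adjusted p = 0.00648). The histone methyltransferase gene Ehmt1 differed by -0.60 and Morc3 by -0.52 (blocked adjusted p = 0.00609 and 0.00836). Tasor, of the HUSH silencing complex, and Atf7ip, a partner of Setdb1, differed by -0.89 and -0.65 (0.0146 and 0.0335), and Daxx by -0.49 (0.0203). The 2 higher genes were Chd3 and Hdac2, with differences of 0.40 and 0.25.

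Other zinc finger genes were set beside the members only by their counts. For HS+LPS against LPS the median log2 difference was -0.28 for 28 Zbtb genes (1 higher and 4 lower in the blocked fit), -0.35 for 12 Zscan and Zkscan genes (0 and 4) and -0.17 for 54 genes of other zinc finger kinds (5 and 12). Of all genes 6.32% were higher and 12.6% lower. Of those with means of 30 or more, a limit these families also met, 7.85% were higher and 15.7% lower. The 14.3% of Zbtb genes that were lower thus lay near the background, while the share was 33.3% of the Zscan and Zkscan genes and 22.2% of the other kinds. The members' -0.31 lay among the families' medians, and no difference between the families was tested.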

How the data were processed

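The deposited intensities are linear, with 1 value for each probe set on each array, and the 2% trimmed mean of each array is 100.001, a value that a scaling step would leave; the software is not given in the sources used here. Signals became log2(intensity + 3.37), 3.37 being the 25th percentile of all values, which understates changes of dim genes. A filter at the 40th percentile of the mean log2 value kept 27061 of 45101 probe sets, and a gene took its brightest probe set with exactly 1 symbol (34958 probe sets had 1, 932 several). Equal array means hide any difference in total mRNA between groups.

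All 12919 genes entered 1 limma 3.58.1 fit (R 4.3.3; lmFit, eBayes with an intensity trend) of the 3 groups with Benjamini-Hochberg adjustment at 0.05; values are mean ± SD of 2 cultures, whose number limits the precision. The culture block was an alternative, although the numbers pair the arrays: the labels number the cultures, per the study's design text each came from its own embryo, and their deviations from group means correlated at 0.621, 0.569 and 0.534. The block lowered the median SE from 0.227 to 0.149 and left 2 residual degrees of freedom in place of 3. The fit was tested on simulated data. Members, roles and lists were chosen with earlier results of these data known; role groups and the run of neighbours were picked after values were seen. Named genes were those called, the largest 10 blocked increases and 15 decreases per comparison, the brightest 6, those at the edge of the rule and a list of known roles, with Zfp445, Zfp568, Zfp346 and Zfp110 added for their roles. Promoter windows and gene order came from RefSeq tables (GRCm38.p6). Alternatives changed 1 choice at a time, and those that combined the block with another choice were added after seeing the data.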

Additional observations from a re-analysis of the deposited data

How the results depend on the processing

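The counts of called members moved most with the culture in or out of the fit. For HS+LPS against LPS (4 as reported) the count was 2 with a pseudocount of 1, 2 with no filter, 1 with no intensity trend, 0 with the mean of probe sets, 0 with only the groups compared and 0 to 0 without 1 array. With the replicate block for culture it was 60, and with the block and another choice 40 (quantile normalization), 44 (median centring), 57 (pseudocount 1), 60 (pseudocount 16), 48 (mean of probe sets), 38 (no filter), and 50 and 46 (without Control replicate 1 or 2), 28 and 16 (without LPS replicate 1 or 2) and 71 and 37 (without HS+LPS replicate 1 or 2). Without the block, median centring gave 3 higher and 1 lower (75% higher against 25%) and quantile normalization 2 and 1 (66.7%). For HS+LPS against Control (1) it was 0 with quantile normalization, the mean of probe sets, no intensity trend or only the groups compared, and 0 to 0 without 1 array; with the block 62, and with the block and those same choices 56, 56, 62, 64, 47 and 47, and without 1 array, in the same order, 31, 11, 63, 62, 80 and 47. For LPS against Control (0) the block gave 1, with median centring 1, with pseudocount 16 2, with the mean of probe sets 1 without Control replicate 2 1, and without HS+LPS replicate 1 or 2 5 and 6.

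The members' median log2 difference was -0.20 (quantile) and -0.18 (median centring) for HS+LPS against LPS, -0.38 to -0.24 without 1 array, and -0.26, -0.23 and -0.45 to -0.27 for HS+LPS against Control; it kept its sign in all of these. For LPS against Control it was -0.020 with a mean intensity of 50 required and -0.11 to 0.040 without 1 array. Of 80 single-gene results, 7 comparisons with an alternative reversed: Zfp521 LPS against Control (0.067 without Control replicate 2, 0.02 without LPS replicate 1, and from -1.11 over all arrays left out) and HS+LPS against LPS (0.087 without LPS replicate 2, and from -0.99); with the mean of probe sets Zfp207 (0.13, and 0.10 against Control) and Zfp64 against Control (-0.017); and Zfp771 against Control (0.39) with no x or s probe sets. Another 1219 kept direction and side of the threshold, 80 passed it newly and 52 lost it. Most of the 1219 were results that did not pass either way. Of the 80 new passes, 75 came with the culture block, the fit by which those genes were picked, so they are no separate support. All 52 losses fell on the few results that passed without the block. Neither scaling reversed any of these 80 results, which were picked because they passed a fit. Over all members, those below 0 for HS+LPS against LPS fell from 142 to 122 with median centring and to 125 with quantile normalization. The causes were not tested. Signals near the noise, the 2 cultures and probe sets shared by similar genes limit what can be read from single dim members.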

Other observations

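Below the intensity limit of 30, 93 further Zfp genes passed the filter on low values. For HS+LPS against LPS their median log2 difference was -0.46, and 80 were below 0 (86%, against 55.6% of all genes). In the limma fit without the block 0 passed, where 0.511% of all genes were higher and 0.844% lower. At an unadjusted p under 0.05, 20 were lower and 0 higher (11.9% and 4.95% of all genes). With the block 10 were lower and 0 higher, or 10.8% and 0%, against 12.6% and 6.32% of all genes, which include brighter ones. For LPS against Control the median was -0.05, with 0 called in either fit. Of all genes 0.147% were higher and 0% lower without the block, and 2.04% and 0.712% with it.

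Of the 146 members with a RefSeq window, 21 (14.4%) shared upstream bases with a gene read in the opposite direction, against 16.8% of 10384 genes tested. Zfp91 shared bases with Lpxn, Zfp142 with Bcs1l and Zfp758 with its neighbour Zfp944.

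For LPS against Control the largest difference of a member upwards was that of Zfp428, a name chosen after its values were seen, which read 45.8 and 37.6 in Control, 70.7 and 73.8 in LPS and 45.2 and 43.8 in HS+LPS. The LPS arrays were the highest of the 6, and the log2 difference of 0.75 did not pass (limma adjusted p = 0.544, blocked 0.0704).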
